A study of Homo sapiens with 3 samples.

Results

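The mitochondrial ribosome genes were taken as all probes of the array, control spots aside, whose gene name begins with MRPL or MRPS followed by a digit. They are 77 gene names with 108 probes, of 29846 gene names and 41000 probes on the array. MRPL names number 48 and MRPS names 29, and 1 of the MRPL names, MRPL42P5, is a pseudogene. The arrays measured RNA of YB5 cells, a clone of the colon cancer line SW48 that carries 1 copy of a GFP reporter silenced by methylation of its CMV promoter, so that all groups come from 1 clone. Cells were given decitabine at 25 nM, an inhibitor of DNA methylation, carboplatin at 20 uM, a platinum drug that cross-links DNA, or both, on each of days 1, 2, 3 and 4, and control cells were given DMSO. They were harvested on day 6, and each treatment was measured on 1 array of 2 colours, with treated RNA in Cy3 and control RNA in Cy5. The arrays are called here by their labels, and that of both drugs is the combination array. Since a treatment has a single array, differences have no replicate check and were not tested.

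Mitochondria carry their own ribosome, which translates the few proteins encoded by mitochondrial DNA, all of them subunits of the respiratory chain and ATP synthase. Its RNA comes from mitochondrial DNA, whereas each of its proteins is encoded in the nucleus, made in the cytoplasm and imported. Proteins of the large subunit, which forms the peptide bond, are named MRPL, and those of the small subunit, which reads the messenger RNA, are named MRPS. Some descend from bacterial ribosomal proteins and others were added in the course of mitochondrial evolution. MRPS18A and MRPS30 are found in the large subunit in spite of their names, and MRPS36 is now known as an adaptor of the oxoglutarate dehydrogenase complex.

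All 108 member probes were well above background in both channels of the 3 arrays, none was saturated, and each was spotted once. Their median mean log2 intensity was 12.43, against 7.72 over all probes, so the members belong to the bright part of the array. They lie on 21 chromosomes, with 8 genes each on chromosomes 1 and 2. Of 8 genes marking intestinal epithelium, 7 were above background in the control channel on all arrays, with KRT18 and KRT19 among the bright ones and CDX1 not above it. VIL1, 1 of the 7, was dim, at log2 levels of at most 8.14, and 1 of its probes on the combination array was not above background. Neither of 2 endothelial markers was above it, and COL1A1 of 3 fibroblast markers and CD3E and CD14 of 4 white blood cell markers were, at log2 levels of at most 7.30. On the decitabine-labelled array the control channel was low over a strip at columns 1 to 9 of 85, which holds 9.98% of all probes and 13 of the 108 member probes, and the values of this strip are therefore given apart. Outside the strip the SD of repeated spots, pooled over 264 probes spotted 10 times each, was 0.0776, 0.0748 and 0.0757 on the log2 scale on the decitabine-labelled, carboplatin-labelled and combination arrays. This SD covers error within 1 array only. Including the strip it was 0.230 on the decitabine-labelled array.

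Of the 108 member probes 95 lie outside the strip, for 69 genes, and 13 inside it, for 13 genes. For 8 genes, MRPS9, MRPS15, MRPS18B, MRPS27, MRPS35, MRPS36, MRPL37 and MRPL39, the only probe lies in the strip. MRPL10, MRPL38, MRPL49, MRPL55 and MRPS6 have a probe in each place and so read the same gene at both. The probes of MRPL55 and MRPS6 are shown here because the 2 probes of MRPL55 share part of their sequence, whereas those of MRPS6 lie apart on the gene. Each line holds 30 of the 60 bases of a probe as the scanner files give them, 5′ to 3′, with positions of the whole probe on GRCh37, and capitals mark the 25 bases that both MRPL55 probes hold.
MRPL55, in the strip (last 30 bases, chr1:228294501-228294560, minus strand): cgagcAGGAGCTCAGTGATGACTTGCATGT
MRPL55, outside (first 30 bases, chr1:228294466-228294525, minus strand): AGGAGCTCAGTGATGACTTGCATGTggagc
MRPS6, in the strip (first 30 bases, chr21:35514794-35514853, plus strand): ggaatattgtcaaacaccctctgacccagg
MRPS6, outside (first 30 bases, chr21:35515227-35515286, plus strand): gtgagctagtcattcagcctgtgtaaccat

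Outside the strip the mitochondrial ribosome genes stood modestly above the control on the decitabine-labelled array, less so with both drugs, and close to it on the carboplatin-labelled array. Values are log2 of treated over control. A probe is said to have risen or fallen where it reached 1.5-fold on that array, which is 0.58 on this scale. Directions follow the sample labels. Members that the study names as raised by carboplatin stand highest here on the decitabine-labelled array, apart from MRPL38 outside the strip, and their order differs in the authors' processed values given further on. On that array the median of the 95 probes was 0.23 (quartiles 0.05 and 0.38), and 76 probes were above 0. With both drugs the median was 0.13 (quartiles -0.04 and 0.32), with 65 probes above 0, and on the carboplatin-labelled array it was 0.04 (quartiles -0.12 and 0.21), with 55 above 0. Over all probes outside the strip that were above background the medians were -0.02, -0.00 and -0.00 in the order decitabine, carboplatin and both. The sign of the member medians depends on the scaling, since with median centring they were -0.33, -0.45 and -0.33, beside -0.39, -0.28 and -0.28 for all probes above background, and in the authors' processed values 0.12, -0.05 and 0.04. RNA of many cells was read together, so that fewer cells with a transcript and less of it per cell cannot be told apart. Each ratio is also relative to all RNA on its array, so that a change in total RNA per cell would not be seen.

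On the decitabine-labelled array 14 of the 95 probes rose, for 13 genes, and 1 fell. In the background 5.8% of probes outside the strip rose and 6.02% fell. The carboplatin-labelled array had 1 member probe that rose and none that fell, where the background gave 2.82% up and 1.71% down. With both drugs 7 rose and 1 fell, where the background gave 8.08% up and 6.87% down. With loess the share of members that rose was thus above the background on the decitabine-labelled array. On the carboplatin-labelled array it was near or below the background, and with both drugs it was near it. In the authors' processed values 7 members rose with both drugs, where the background was 6.95%. The higher share on the decitabine-labelled array depends on the processing. On the decitabine-labelled array 5 members rose in the authors' processed values, where the background was 5%, and 0 with median centring, where it was 1.82%, so that in these settings their share was near or below the background. The members just inside and just outside 1.5-fold were MRPL41 at 0.59 and MRPL17 at 0.56 on the decitabine-labelled array, MRPL41 at 0.61 and MRPL12 at 0.55 on the carboplatin-labelled array, and MRPL28 at 0.63 and MRPS12 at 0.57 with both drugs.

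**Figure D1:**
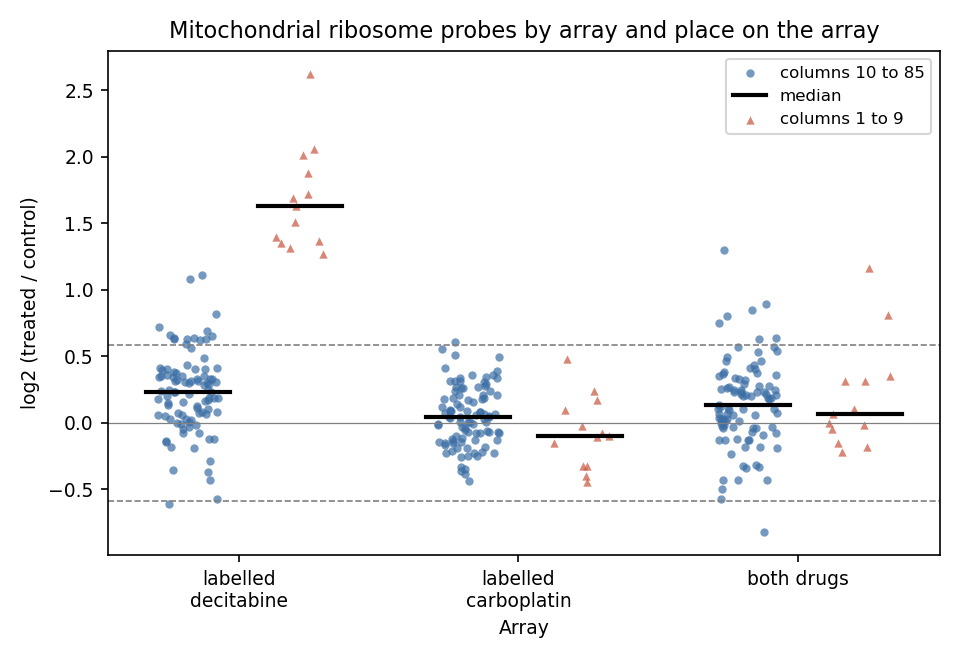
Log2 of treated over control (y axis) for each member probe on the 3 arrays (x axis), with circles for probes at columns 10 to 85, triangles for probes at columns 1 to 9, bars for medians and dashed lines at 1.5-fold. The 13 triangles of the decitabine-labelled array sit between 1.27 and 2.62, above every circle of that array, whereas on the other arrays triangles and circles overlap.

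Among the large subunit proteins, MRPL55 changed most on the decitabine-labelled and combination arrays. Its control levels outside the strip were 14.21, 14.42 and 14.19 on the decitabine-labelled, carboplatin-labelled and combination arrays, and its treated levels were 15.32, 14.63 and 15.49. The control channels thus lay close together while the treated channel was high on both arrays with decitabine in the label. The log2 changes were 1.11, 0.21 and 1.30, or 2.16-fold, 1.16-fold and 2.46-fold. Its probe in the strip, which shares 25 bases with it, gave 0.17 and 1.16 on the carboplatin-labelled and combination arrays, near the values outside, and 2.62 on the decitabine-labelled array.

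MRPL12, the counterpart of the bacterial stalk protein that recruits translation factors, had log2 changes of 0.82, 0.55 and 0.84 in the order decitabine, carboplatin and both. Its control levels were 11.73, 11.59 and 11.66 and its treated levels 12.55, 12.14 and 12.51, so that it was high in treated cells on each array and just under 1.5-fold on the carboplatin-labelled array. The other stalk proteins did not share this pattern. MRPL11, at the base of the stalk, gave -0.13, -0.14 and -0.33, and MRPL10, which holds the stalk to the ribosome, gave 0.30, -0.12 and 0.10 outside the strip. None of these values of MRPL10 and MRPL11 reached 1.5-fold.

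MRPL27, whose bacterial counterpart reaches towards the site of peptide bond formation, gave 0.63, 0.31 and 0.89. Its treated levels were 13.54, 13.26 and 13.70, over control levels of 12.91, 12.94 and 12.81. MRPL41, a protein specific to mitochondria, was the 1 member that rose on all 3 arrays, with 0.59, 0.61 and 0.80, although with median centring it stood at -0.02 on the decitabine-labelled array. On the carboplatin-labelled array it fell short of 1.5-fold in the authors' processed values and with median centring. MRPL28 gave 0.48, 0.51 and 0.63 and rose on the combination array only. MRPL24, at the exit tunnel of the large subunit, gave 0.66, 0.18 and 0.64. Its neighbours at the tunnel, MRPL22 with -0.15, -0.04 and -0.18 and MRPL23 with 0.06, 0.34 and -0.07, did not reach 1.5-fold.

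MRPL33 and MRPL49 depended on the probe. MRPL33 gave 0.64, 0.03 and 0.43 at a probe split over chr2:27997355-28002316, and 0.20, -0.23 and -0.03 at chr2:28002334-28002393. MRPL49 gave 0.69, 0.39 and 0.57 at a dim probe with control levels of 7.89, 7.89 and 7.93, and 0.24, -0.08 and 0.01 at a bright one with control levels of 13.61, 13.18 and 13.52. MRPL45, which fixes the ribosome to the inner membrane, gave 0.28, -0.22 and 0.03 at one probe and 0.40, 0.04 and 0.19 at the other, and MRPL44, which resembles ribonuclease III, gave -0.03, -0.17 and -0.12. MRPS18A, in the large subunit, gave 0.07, -0.02 and 0.03, and MRPS30, also there, gave 0.15, -0.35 and -0.13 at one probe and -0.01, 0.01 and 0.20 at the other.

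MRPL48, of the central protuberance of the large subunit, was the 1 member that fell. Its control levels were 11.62, 11.51 and 11.51, its treated levels 11.00, 11.15 and 10.69, and its log2 changes -0.61, -0.37 and -0.82. The control channels lay close together, and the treated channel was lower on each array. MRPL46, of the same protuberance, gave -0.37, -0.33 and -0.58 at one probe and -0.08, -0.21 and -0.43 at the other, short of 1.5-fold throughout. MRPL38, a further protein of the protuberance, gave 0.19, 0.41 and 0.35 outside the strip. The lowest member outside the strip on the carboplatin-labelled array was a probe of MRPL50 at -0.44. It gave -0.29 and -0.43 on the decitabine-labelled and combination arrays, whereas the other MRPL50 probe gave 0.40, 0.08 and 0.23. The pseudogene MRPL42P5 gave -0.43, -0.23 and -0.50, and the 2 probes of MRPL42 itself 0.33 and 0.35 on the decitabine-labelled array, with an unknown share of signal from the related transcript.

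In the small subunit, MRPS17, whose bacterial counterpart binds ribosomal RNA early in assembly, gave 0.72, 0.36 and 0.75. Its control levels were 13.03, 12.76 and 12.96 and its treated levels 13.75, 13.12 and 13.71. MRPS12, which sits at the decoding centre, was read by 2 probes outside the strip, at chr19:39423569-39423628 and chr19:39423438-39423496. They gave 0.63 and 0.65 on the decitabine-labelled array, 0.31 and 0.21 on the carboplatin-labelled array, and 0.57 and 0.53 with both drugs, so that both rose on the decitabine-labelled array and stayed just under 1.5-fold on the last. MRPS16 gave 0.64, 0.09 and 0.50, and MRPS33 gave 0.62, 0.07 and 0.54. MRPS18C gave -0.12, -0.10 and -0.19.

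**Figure D2:**
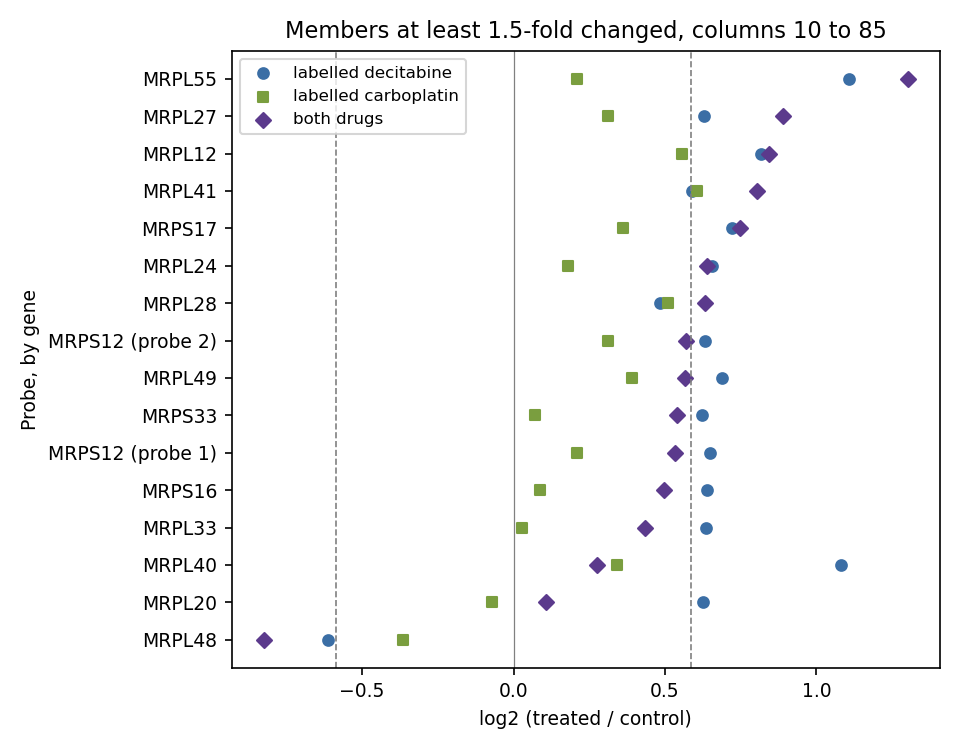
Log2 of treated over control (x axis) on each of the 3 arrays (circles, squares and diamonds) for the 16 probes of 15 genes (y axis) at columns 10 to 85 that reached 1.5-fold on any array, with dashed lines at 1.5-fold in either direction. MRPL55 has the highest circle and diamond, MRPL48 lies below 0 on each array, and for MRPL40 and MRPL20 the circle stands apart from the other symbols.

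MRPL40 and MRPL20 stood apart from the other members that rose on the decitabine-labelled array. MRPL40, a large subunit protein specific to mitochondria, gave 1.08, 0.34 and 0.28. Its treated levels were level across the arrays at 11.23, 11.28 and 11.23, while its control level was 10.14 on the decitabine-labelled array against 10.94 and 10.95 on the others. The spot lies at column 64, well outside the strip, and its 35 neighbours on the array had a median control difference of -0.02, with -0.58 the lowest. MRPL20, the counterpart of an early assembly protein of the bacterial large subunit, gave 0.63, -0.07 and 0.11 at a probe at column 15, with control levels of 12.49, 13.03 and 13.01. The 28 neighbours of that spot had a median control difference of -0.04, with -0.57 the lowest, beside -0.53 for the spot itself. The other MRPL20 probe, at column 81, gave 0.37, 0.18 and 0.27, with control levels of 13.39, 13.29 and 13.28. Without both genes 12 of 92 probes rose on the decitabine-labelled array, and the median was again 0.23.

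Genes with several probes show how far the choice of probe moves a value. Outside the strip 20 genes have more than 1 probe, and the range between probes of 1 gene had a median of 0.21, 0.30 and 0.27 on the decitabine-labelled, carboplatin-labelled and combination arrays. That is several times the SD of repeated spots. It is about as large as the median change of the members on the decitabine-labelled array and larger than it on the other arrays. The widest range on the decitabine-labelled array was 0.94, at MRPS11, where probes gave -0.58, 0.30 and 0.36 and the lowest of them was dim, with a control level of 8.04. MRPS21 has 2 probes of identical sequence, which gave 0.33 and 0.31 on the decitabine-labelled array, 0.19 and 0.24 on the carboplatin-labelled array, and 0.36 and 0.33 with both drugs.

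In the strip at columns 1 to 9, all 13 member probes rose on the decitabine-labelled array, but so did 88.1% of all probes there that were above background. The member median was 1.63, against 1.23 over those probes, and it was 0.16 with loess fitted to the strip by itself. The lowest was MRPS18B at 1.27 and the highest MRPL55 at 2.62. On the carboplatin-labelled array none of the 13 rose, where the background in the strip gave 2.6%, and the median was -0.10. With both drugs MRPL55 at 1.16 and MRPL49 at 0.81 rose, where the background gave 9.67%, and the median was 0.06.

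The channels show where the strip differed. In the strip the control level of the members on the decitabine-labelled array was below the mean of the other arrays by a median of -1.38, with a range from -1.56 to -1.09. Outside the strip the same difference had a median of 0.09 and a range from -0.80 to 0.28, and MRPL40 alone exceeded 1.5-fold. The treated level differed in the strip by a median of 0.23, with a range from 0.03 to 0.45, and by a median of 0.19 outside it, and no member differed by 1.5-fold in that channel. For MRPS36 the control levels were 12.20, 13.61 and 13.47 and the treated levels 13.52, 13.50 and 13.32. For MRPS6 in the strip the control levels were 10.57, 12.22 and 12.02 and the treated levels 12.58, 12.20 and 12.37. In both genes the control channel of 1 array is low, and the treated channel moves by far less.

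**Figure D3:**
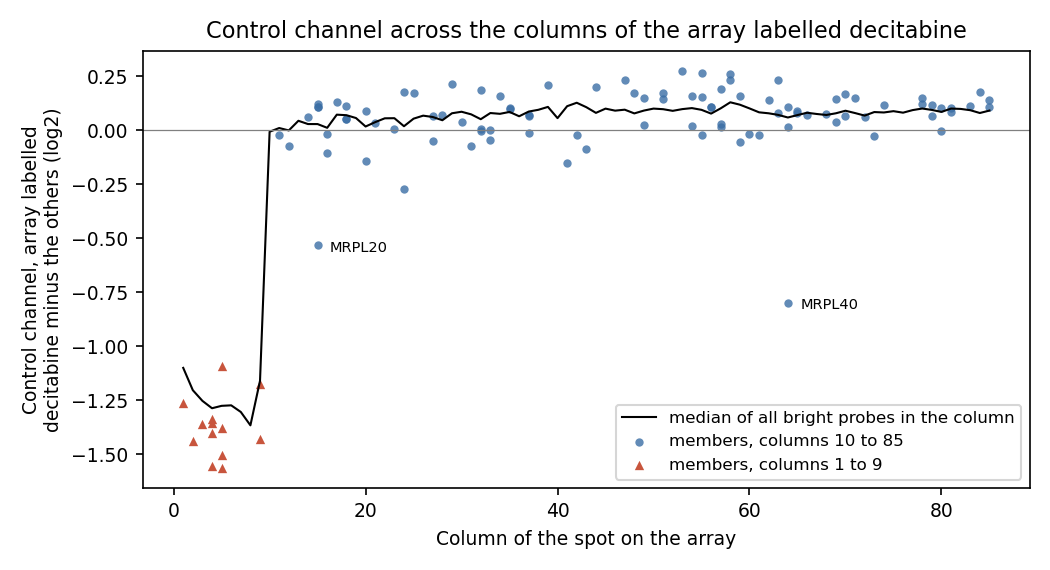
Control level on the decitabine-labelled array minus the mean of the other arrays, in log2 (y axis), against the column of the spot (x axis), with a line for the median of all probes above background in a column and points for the member probes. The line runs from -1.10 at column 1 to -1.37 at column 8, is at -0.01 at column 10 and near 0 from there on, and the members follow it apart from MRPL40 and MRPL20.

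**Figure D4:**
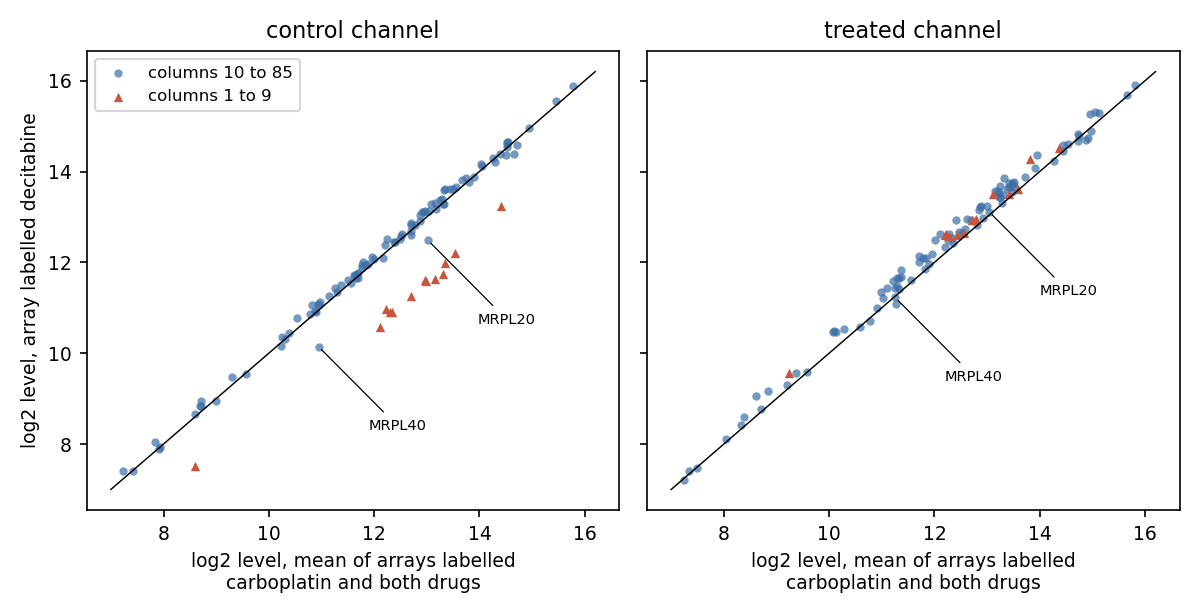
Log2 level of each member probe on the decitabine-labelled array (y axis) against its mean level on the other arrays (x axis), for the control channel and the treated channel, with triangles for columns 1 to 9, circles for columns 10 to 85 and a line of equal levels. In the control channel all 13 triangles lie below the line, and in the treated channel they lie on it or just above, among the circles.

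The genes read at both places give the same contrast within a gene. On the decitabine-labelled array MRPS6, a small subunit protein, gave 2.01 in the strip and 0.18 outside, MRPL10 gave 1.51 and 0.30, and MRPL38 gave 1.87 and 0.19. MRPL49 gave 2.06 in the strip and 0.69 and 0.24 outside. On the carboplatin-labelled array the probes in the strip and outside gave -0.02 and -0.15 for MRPS6, -0.44 and -0.12 for MRPL10, and 0.24 and 0.41 for MRPL38, and with both drugs 0.35 and -0.00, -0.02 and 0.10, and 0.31 and 0.35. MRPL49 gave 0.48 in the strip and 0.39 and -0.08 outside on the carboplatin-labelled array, and 0.81 in the strip and 0.57 and 0.01 outside with both drugs. On the decitabine-labelled array the probe in the strip stood highest in each gene, by more than on the other arrays, and on those the gap was widest for MRPL49, whose probes outside the strip also lay apart.

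**Figure D5:**
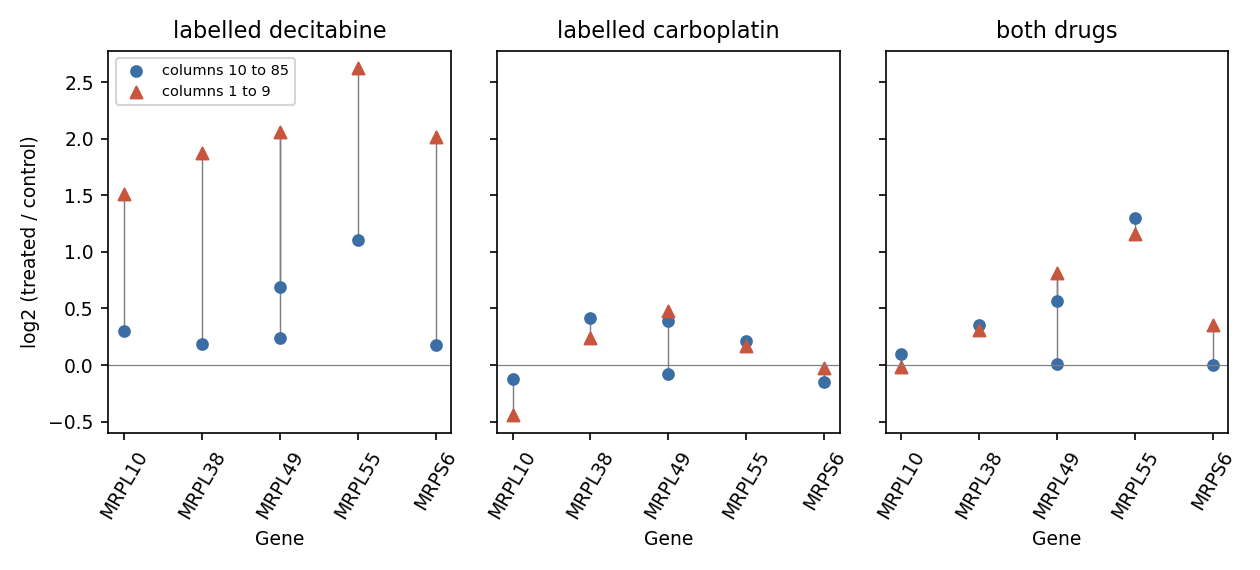
Log2 of treated over control (y axis) for the 5 genes with a probe at columns 1 to 9 (triangles) and at columns 10 to 85 (circles), 1 panel per array, with grey lines joining probes of a gene. On the decitabine-labelled array each triangle lies far above its circles, by 2.01 against 0.18 for MRPS6. On the other arrays the gaps are smaller and run in either direction, with the widest for MRPL49, at 0.81 in the strip against 0.57 and 0.01 with both drugs.

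The treated channel of the decitabine-labelled array was also set against the mean control channel of the other arrays. The low control channel is then no longer the reference. It still enters the treated levels through loess and the scaling between arrays. The 13 members in the strip then had a median of 0.26, and MRPL55 and MRPL49 alone reached 1.5-fold. MRPL37, MRPS35, MRPS36 and MRPS9 lay just below 0. The 95 probes outside had a median of 0.27, of which 14 rose, among them 10 of the 14 that rose against their own control. Of all probes above background 7.71% rose outside the strip and 7.27% in it in this setting. In this setting the members had like medians inside and outside the strip. Over all probes above background the medians were 0.03 in the strip and 0.06 outside it.

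The members in the study's list of mitochondrial genes raised by carboplatin are MRPS6, MRPS15, MRPS35, MRPS36, MRPL10, MRPL38 and MRPL40. That list was chosen on these arrays and is no independent evidence of a direction. Of these 7 genes 6 have a probe in the strip, and for 3 of them it is the only one. The seventh is MRPL40, whose control level was low on the decitabine-labelled array. On that array MRPS15, which binds ribosomal RNA of the small subunit, gave 1.63, MRPS35 gave 1.36 and MRPS36 gave 1.31. On the carboplatin-labelled array they gave 0.10, -0.32 and -0.10, and with both drugs 0.31, -0.22 and -0.15. The authors' processed values of these 3 probes were 0.68, 0.30 and 0.27 on the decitabine-labelled array, 0.54, 0.09 and 0.33 on the carboplatin-labelled array, and 0.62, 0.21 and 0.15 with both drugs, so that the signs of MRPS35 and MRPS36 turn on the last 2 arrays. In the same processed values MRPL38 in the strip stood at 0.68, 0.71 and 0.73 and MRPL40 at 0.43, 0.55 and 0.48 on the decitabine-labelled, carboplatin-labelled and combination arrays, each above 0 on every array. The strip as a whole was raised on each array in these values, where all probes above background had medians of 0.40, 0.35 and 0.35 in the strip and -0.05, -0.06 and -0.07 outside it, and 29.3%, 23.8% and 27.9% of those in the strip reached 1.5-fold up. The 13 members there had medians of 0.58, 0.33 and 0.35, with 6, 3 and 5 up. The other members read in the strip alone were also past 1.5-fold on the decitabine-labelled array. MRPS18B gave 1.27, MRPL37 gave 1.39, MRPL39 gave 1.69, MRPS9 gave 1.35 and MRPS27, a pentatricopeptide repeat protein that binds RNA, gave 1.72. On the carboplatin-labelled array these 5 gave -0.15, -0.08, -0.40, -0.33 and -0.10, and with both drugs 0.06, -0.18, 0.10, -0.00 and -0.04.

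By subunit, the large one, with 67 probes, had medians of 0.21, 0.01 and 0.11 on the decitabine-labelled, carboplatin-labelled and combination arrays, with 9, 1 and 6 probes up. The small subunit, with 27 probes, had medians of 0.29, 0.09 and 0.23, with 5, 0 and 1 up. The background outside the strip was 5.8, 2.82 and 8.08% up. Proteins on a list of bacterial relatives drawn up for this report, with 58 probes, had medians of 0.30, 0.05 and 0.19. Those not on it, MRPL55 among them, with 36 probes, had 0.21, 0.04 and 0.11. None of these differences was tested. The SD over single member probes was 0.31, 0.22 and 0.33 on the 3 arrays.

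Genes that act with the mitochondrial ribosome had lower medians than the MRPL and MRPS members on the decitabine-labelled array, a difference that was not tested. So did the 7 ribosomal proteins under other names, with a median of 0.10 there. Outside the strip, 24 genes of ribosome assembly and ribosomal RNA modification had medians of 0.11, 0.02 and 0.08 over 32 probes, of which 1, 2 and 1 rose and none fell. For the counts of these lists and those below, the background outside the strip was 5.8, 2.82 and 8.08% up and 6.02, 1.71 and 6.87% down. FTSJ2, a ribosomal RNA methyltransferase, gave 0.81, 0.93 and 1.17, and the other probe that rose, for WBSCR16, gave 0.68 on the carboplatin-labelled array. Translation factors, with 15 genes and 23 probes, had medians of 0.16, -0.09 and 0.08. Of these, 1, 0 and 2 rose and 0, 0 and 1 fell, with GTPBP3, which modifies mitochondrial transfer RNA, at 0.98, 0.48 and 1.16, TRMU, which also modifies it, at 0.52, 0.41 and 0.68, and MTRF1, a release factor, at -0.38, -0.45 and -0.68. Among 19 probes for mitochondrial aminoacyl-tRNA synthetases and 16 for mitochondrial transcription and RNA processing none reached 1.5-fold on any array, with medians of 0.06, -0.03 and 0.02 for the former and 0.15, -0.17 and 0.12 for the latter. Of 7 ribosomal proteins under other names, with medians of 0.10, 0.11 and 0.12, DAP3, of the small subunit, rose with both drugs at 0.64 and gave 0.42 and 0.13 on the decitabine-labelled and carboplatin-labelled arrays. MRP63 gave 1.61 in the strip and 0.16 outside it on the decitabine-labelled array.

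The proteins of the cytoplasmic ribosome, which are also read by bright probes, had medians of 0.01, -0.14 and -0.16 outside the strip over 185 probes of 79 genes, with 4, 0 and 3 up and 5, 7 and 13 down. In the strip all 20 of their probes rose on the decitabine-labelled array, with a median of 1.70, beside 1.63 for the mitochondrial ribosome. The regulators of mitochondrial genes went in different directions. ESRRA, a nuclear receptor that drives genes of energy metabolism, gave 0.78, 0.21 and 0.83. The probes of MYC, a growth regulator, differed, with 0.67, 0.20 and 0.48 and 0.13, -0.09 and 0.02 at 2 dim ones outside the strip and 0.74, -0.45 and 0.41 at a bright one with spots at both places, and the highest of 3 probes of the coactivator PPARGC1B gave 0.53, -0.02 and 0.69. GABPA, the DNA-binding subunit of an ETS family factor that acts on many genes of mitochondrial proteins, gave -0.59, -0.33 and -0.55, and 1 probe of its partner GABPB1 gave -0.68, -0.53 and -0.82 while the other gave -0.23, -0.12 and -0.11. NRF1 gave -0.13, 0.02 and -0.14. YY1 gave -0.12, 0.23 and -0.11 at one probe and -0.55, -0.15 and -0.41 at the other. Over the 14 regulator probes above background 2, 0 and 2 rose and 2, 0 and 1 fell, with medians of 0.01, -0.05 and -0.04.

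Promoter sequences of the RefSeq annotation on GRCh38.p14, from 250 bases before to 50 after the start, matched 67 of the 77 gene names with 83 promoters. The motif CCGGAAG of the ETS family was found on either strand in 32 of them, or 38.6%, against 10.3% of all promoters in the table and 12.8% of those of protein-coding genes. AAGATGGCG, of the factor YY1, was found in 15.7% of member promoters, against 1.75% of all and 2.41% of protein-coding ones, and GCGCATGCG, of NRF1, in 3.61%, against 1.92% and 2.36%. No motif holds another. Genes with the ETS motif had medians of 0.28, 0.07 and 0.20 on the decitabine-labelled, carboplatin-labelled and combination arrays over 28 genes outside the strip, and those without it 0.30, 0.06 and 0.23 over 31. Of 11 genes with the YY1 motif none rose on any array, with medians of 0.15, -0.02 and 0.03, and of 48 without it 11, 1 and 7 rose. Of all probes above background outside the strip 5.8, 2.82 and 8.08% rose, so that none among 11 genes is close to the background. These are descriptions of the letters in a window and were not tested. The 250 bases before the start are shown for MRPL27, which rose, and MRPL48, which fell, since both hold the ETS motif, in capitals, starting 52 and 8 bases before the start of MRPL27 and 63 bases before that of MRPL48.
MRPL27 (GRCh38.p14 chr17:50373185-50373434, minus strand): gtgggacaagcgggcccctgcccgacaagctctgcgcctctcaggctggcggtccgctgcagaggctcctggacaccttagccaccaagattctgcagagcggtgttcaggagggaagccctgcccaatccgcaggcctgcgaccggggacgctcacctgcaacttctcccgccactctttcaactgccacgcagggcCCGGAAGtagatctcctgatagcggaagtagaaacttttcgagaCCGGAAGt
MRPL48 (GRCh38.p14 chr11:73787624-73787873, plus strand): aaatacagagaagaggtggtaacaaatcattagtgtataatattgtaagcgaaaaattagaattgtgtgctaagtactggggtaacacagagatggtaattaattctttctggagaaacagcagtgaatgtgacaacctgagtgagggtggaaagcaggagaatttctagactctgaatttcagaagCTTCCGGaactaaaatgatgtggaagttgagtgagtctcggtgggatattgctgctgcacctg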

How the data were processed

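Each of the 3 arrays gave 43376 gene spots. Per the file headers the deposited scanner files hold spot intensity read by Agilent Feature Extraction 9.5.3.1, whereas the submitters' processing notes name 8.5.1.1, R 3.0.2 and limma. The deposited log ratio is log10 of red over green processed signal, turned here to log2 of treated over control. The authors' processed values are loess-normalized log2 ratios, and their background step and averaging are not given in the sources used here. Their direction was taken from the correlation across probes with the scanner values (r of 0.867, 0.838 and 0.936 on the decitabine-labelled, carboplatin-labelled and combination arrays), and the column medians were -0.01, 0.00 and -0.01.

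Values were computed with R 4.3.3, limma 3.58.1, the data.table package (version 1.17.8) and jsonlite 2.0.0 by normexp with an offset of 50 on mean signal and median local background, then loess within each array, with control spots and outlier spots (276, 111 and 89) at no weight. Spots of a probe were averaged, and channel levels come from Aquantile scaling. All arrays lie on 1 slide and no dyes were swapped, so dye and treatment cannot be told apart. The treated channel was above background for 65.8, 68.4 and 68.5% of spots and the control channel for 69.0, 70.3 and 68.2%, and the number of arrays limits precision. The calculation was checked on simulated data, with a treated channel made from the control channel and known changes added. The simulated channels did not differ by place, so the check does not cover the low strip. Tables were drawn up with Python 3.11.15, pandas 2.3.3, numpy 2.4.6 and matplotlib 3.10.9. No per-sample column was left unmapped.

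The members and lists were chosen with earlier results of these data known. Named genes are those that reached 1.5-fold outside columns 1 to 9, those with a probe at both places, those in the study's list, the highest and lowest on each array, and members of known place or role. Others are named as examples. Gene positions within exons are not given, since no GRCh37 annotation was used here. Other settings of the processing numbered 8, and 2 more were chosen after seeing the data.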

Additional observations from a re-analysis of the deposited data

How the results depend on the processing

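No paired analysis was possible because each treatment has 1 array, and for the same reason no array could be left out. Background subtraction, the strip at columns 1 to 9, and MRPL20 and MRPL40 (chosen after seeing the data) were left out in turn. None of these settings moved a count of members past 1.5-fold by over 1.5 times. None moved a median beyond the SD of repeated spots. Leaving out probes below background could not move a member value, since all 108 member probes were above background in all channels. Outside the strip the medians on the decitabine-labelled, carboplatin-labelled and combination arrays were 0.12, -0.05 and 0.04 in the authors' values and -0.33, -0.45 and -0.33 with median centring. Probes up numbered 5 and 0 on the decitabine-labelled and carboplatin-labelled arrays in the authors' values, and 0, 0 and 1 with median centring. Probes down numbered 15, 28 and 14 of 95 with median centring. Of all probes above background outside the strip 7321 of 23219, 4775 of 23222 and 5814 of 23222 were down in that setting. In the authors' values 2 were down on the carboplatin-labelled array and 3 with both drugs, and in the scanner's log ratio 2 were down on the decitabine-labelled array and 4 with both drugs. Against the control channels of the other arrays, chosen after seeing the data, 0 were down on the decitabine-labelled array. In the strip the median on the decitabine-labelled array was 0.51 in the scanner's log ratio, 0.58 in the authors' values, 1.09 with median centring, 0.16 with loess fitted separately to the strip, 1.45 with 1 probe per gene and 0.26 against the other controls. On the carboplatin-labelled array it was 0.33 in the authors' values and -0.59 with median centring, and with both drugs -0.041 in the scanner's log ratio, 0.35 in the authors' values and -0.49 with median centring. Signs turned on the decitabine-labelled array as follows. In the scanner's log ratio MRPL10 in the strip gave -0.0078, MRPL37 -0.43, MRPS15 -0.24 and MRPS35 -0.10. With separate loess MRPL37 gave -0.081, MRPS18B -0.25, MRPS35 -0.12, MRPS36 -0.18 and MRPS9 -0.13. Against the other controls MRPL37 gave -0.046, MRPS35 -0.041, MRPS36 -0.024 and MRPS9 -0.0068. With median centring MRPL41 and 1 probe of MRPS12 gave -0.022. Of the 15 probes that reached 1.5-fold outside the strip on the decitabine-labelled array, 6 kept it in the authors' values, 12 in the scanner's log ratio and 1 with median centring, and of the 13 in the strip 2 kept it with separate loess and 6 in the authors' values. The cause of these changes was not tested.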
